A study of Mus musculus with 4 samples.

Results

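Prostaglandins and leukotrienes are short-lived lipid signals made from arachidonic acid, and 10 of the genes that make, sense or remove them were followed through the onset of heterotopic ossification, the formation of bone inside soft tissue. The genes were Ptgs1, Ptgs2, Ptges, Ptgis, Ptger2, Ptger4, Hpgd, Alox5, Alox5ap and Alox15. They were selected by symbol from the 32285 features of the count tables, each symbol named 1 feature, and the rule uses no measured value. The tissue was tibial muscle of C57BL/6 Nse-Bmp4 mice, 6 to 8 weeks old, in which the neuron-specific enolase promoter drives Bmp4. All groups carried the transgene, so there was no section of wild-type muscle. The groups were uninjured muscle (day 0) and muscle taken 1, 3 and 7 days after injury with cardiotoxin, a snake venom toxin that kills myofibres. RNA was captured in place from 1 fresh frozen cryosection per day, on an array of spots that each cover several cells. For each group 3 tibial muscles were mixed according to the labels, and how they map onto a single section is not given in the sources used here. With 1 section per day there was no spread between animals and no test was possible. Every interval below is a 95% interval that covers counting error only, and a difference between days also holds whatever differed between single sections.

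Arachidonic acid is released from membranes by phospholipases and is then taken up by 1 of 2 routes. The cyclooxygenases, Ptgs1 (COX-1, present in many resting tissues) and Ptgs2 (COX-2, known for its induction by inflammatory signals), turn it into prostaglandin H2. Terminal synthases then make prostaglandin E2 (Ptges) or prostacyclin (Ptgis). Ptger2 and Ptger4 are the prostaglandin E2 receptors that couple to cyclic AMP, and Hpgd inactivates prostaglandins. On the other route Alox5, aided by the membrane protein Alox5ap, makes leukotriene A4, the precursor of the leukotrienes that attract and activate leukocytes. Alox15 is a second lipoxygenase, known from eosinophils and some macrophages. In bone, COX-2 and prostaglandin E2 are known for their part in endochondral repair, in which a cartilage template is replaced by bone.

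The 4 sections held 10835 spots, from 2107 on day 0 to 3032 on day 7, and levels in CPM used all of them. Depth ran from 16777832 UMIs (unique molecular identifiers, each standing for 1 captured transcript) on day 1 to 56113066 on day 3, and the median spot had from 6322 UMIs on day 1 to 21029 on day 0. The day 1 section had the least depth, and 513 of its spots held under 2000 UMIs, against 9 to 84 in the other sections. Such spots were left out of the shares of spots at equal depth, which rest on 2090 spots on day 0, 2154 on day 1, 3020 on day 3 and 2948 on day 7. Levels are given as CPM, UMIs of a gene per 1e6 UMIs of the section. The 10 adult myofibre genes made up 21.7% of the day 0 UMIs and from 6.78% to 12.7% in the injured sections, and edgeR TMM factors, which allow for such shifts, moved every log2 ratio to day 0 by -0.19 on day 1, -0.55 on day 3 and -0.61 on day 7. Muscle identity was present in every section, the monocyte/macrophage list of 9 marker genes was highest on day 3 (8658 CPM against 405 on day 0), the neutrophil list of 8 genes on day 1 (171 CPM against 2.71), and the chondrogenic list of 13 genes on day 7 (2043 CPM against 11.5 on day 0, 33.3 on day 1 and 23.7 on day 3). Of these lists, Ly6g was at 0 UMIs in the sections of days 0, 3 and 7, and from 2 to 5 chondrogenic genes were at 0 before day 7. Between 1539 and 2311 spot barcodes were shared by each pair of sections, as the arrays use 1 set of barcodes. Bmp4 itself, in which transgene and endogenous transcripts cannot be told apart, was at 9.48 CPM on day 0, 2.68 on day 1, 4.99 on day 3 and 9.49 on day 7.

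The start sites of the cyclooxygenase genes are shown first, since Ptgs2 is the gene on which most of the results turn and Ptgs1 is the other cyclooxygenase. RefSeq promoters (250 bases before to 50 after the start site, build GRCm38.p6, the assembly that the submitters' notes call mm10) were found for 7 of the 10 genes. The Ptgs2 window lies on the plus strand of chr1:150099781-150100080, at the first base of a gene that spans 150100031 to 150108234. The Ptgs1 window lies on the plus strand of chr2:36230176-36230475, and its start site falls 13684 bases inside the annotated gene (36216742 to 36258593), so it is that of a shorter transcript. Capitals mark the letters of the searched motifs.
Ptgs2: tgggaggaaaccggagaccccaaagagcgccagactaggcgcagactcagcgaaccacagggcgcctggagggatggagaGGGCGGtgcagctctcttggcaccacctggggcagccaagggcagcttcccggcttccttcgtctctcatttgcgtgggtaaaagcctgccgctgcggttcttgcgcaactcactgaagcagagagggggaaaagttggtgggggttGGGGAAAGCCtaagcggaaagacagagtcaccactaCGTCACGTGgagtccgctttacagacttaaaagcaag
Ptgs1: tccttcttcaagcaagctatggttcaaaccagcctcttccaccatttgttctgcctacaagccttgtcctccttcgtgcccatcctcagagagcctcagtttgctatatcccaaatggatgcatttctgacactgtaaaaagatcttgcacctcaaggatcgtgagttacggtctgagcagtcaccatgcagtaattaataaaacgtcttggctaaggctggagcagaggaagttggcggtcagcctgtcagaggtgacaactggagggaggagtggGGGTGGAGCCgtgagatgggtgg
Counted from the start site as position 0, the Ptgs2 window held the GC box letters GGGCGG from -170 to -165 and an NF-kB-type match to GGGNNNNNCC from -23 to -14. The cyclic AMP response element core TGACG lay on the minus strand at 13 to 17, and the E-box CACGTG at 16 to 21, so that these overlap by 2 bases. No TATAAA or CCAAT was found in it. The Ptgs1 window held a single match, GGGNNNNNCC at 27 to 36. Searched on both strands, GGGCGG was present in 35.7% of 32851 promoters of the same length, GGGNNNNNCC in 50.8%, TGACG in 20.8%, CACGTG in 7.15%, TATAAA in 13.6% and CCAAT in 37.4%. The Ptgs2 window held 16 CpG dinucleotides at 59.3% GC and the Ptgs1 window 6 at 50.7% GC. A match of letters is a description of the window, and no binding was measured.

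Ptgs2 was nearly absent from uninjured muscle and was higher in each later section. It had 6 UMIs on day 0 (0.137 CPM, interval 0.0502 to 0.298), 8 on day 1 (0.477 CPM, 0.206 to 0.940), 102 on day 3 (1.82 CPM, 1.48 to 2.21) and 971 on day 7 (23.2 CPM, 21.8 to 24.7). The order of the sections was thus day 0, 1, 3 and 7, and the intervals of the levels overlapped only between days 0 and 1. Relative to day 0 the level was 3.49-fold (1.06 to 12.2) on day 1, 13.3-fold (5.90 to 37.1) on day 3 and 170-fold (77.7 to 464) on day 7. From day 3 to day 7 it was 12.8-fold (10.4 to 15.8) higher. Spots were then thinned to 2000 UMIs, so that depth was equal, and shallower spots were left out (513 of 2667 on day 1). A Ptgs2 UMI was found in 0.0311% of spots on day 0 (0.00121 to 0.266) and 0.153% on day 1 (0.0287 to 0.406). The share was 0.283% on day 3 (0.136 to 0.565) and 4.45% on day 7 (3.73 to 5.25). The intervals of days 0, 1 and 3 overlapped, and only that of day 7 lay apart. At full depth 520 spots of day 7 held the gene, up to 15 UMIs in a spot, and no spot of days 0 and 1 held more than 1. In sections like these, more cells of a type and more RNA per cell cannot be told apart.

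**Figure D1:**
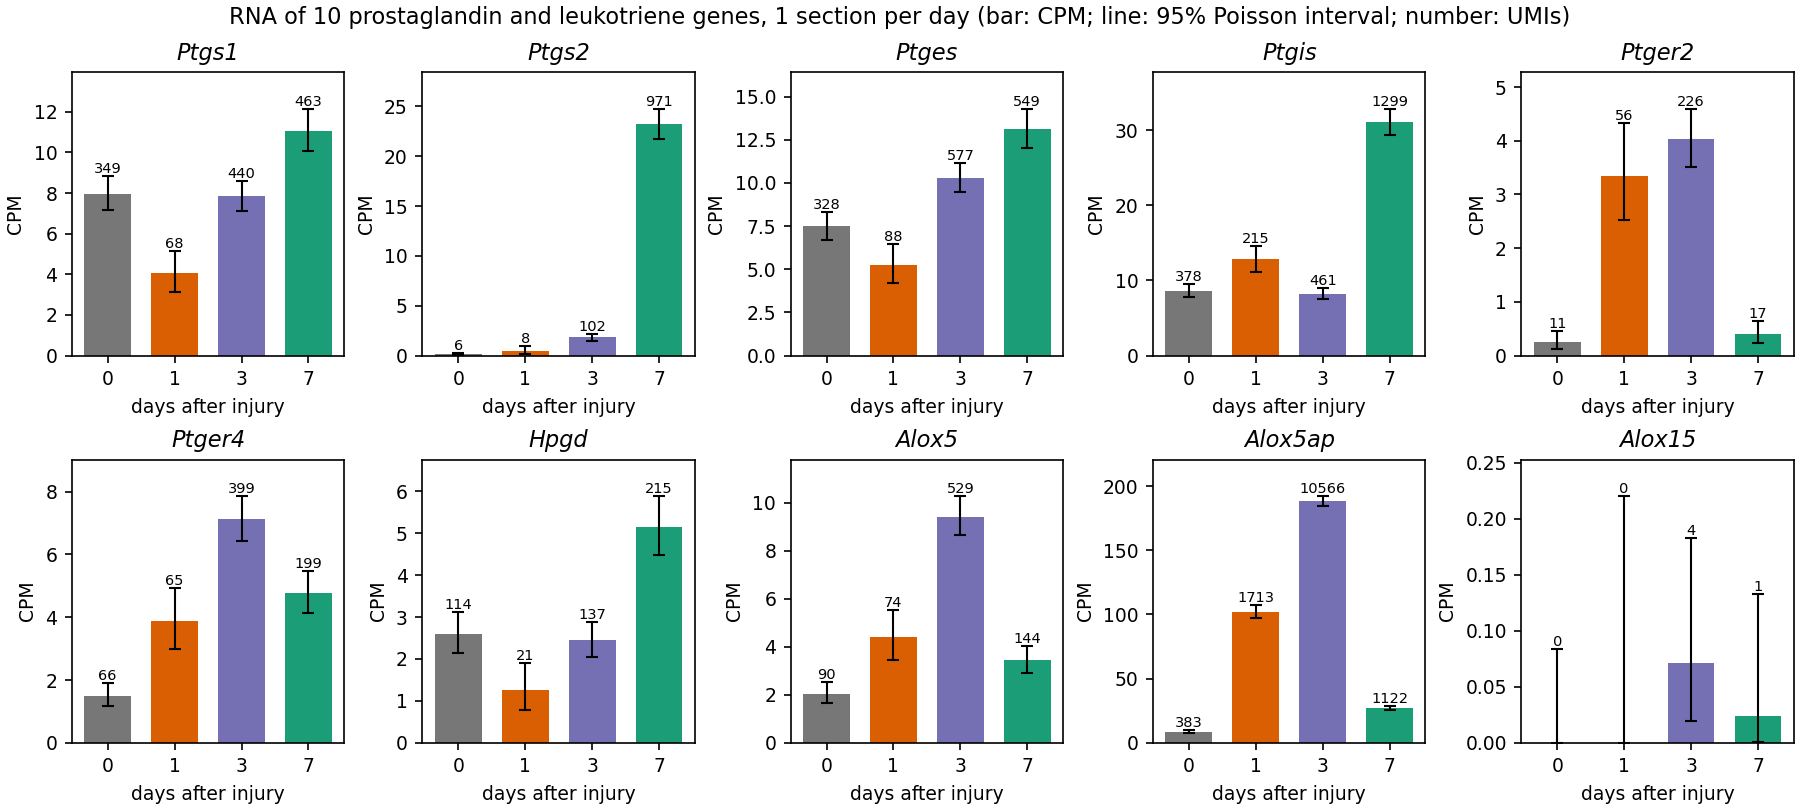
Level of each of the 10 genes in the sections of days 0, 1, 3 and 7 (1 section per day). Bars are CPM on a linear axis from 0 that differs between panels, lines are 95% Poisson intervals of counting error, and the number above each bar is its UMIs. Ptgs2 and Ptgis are highest on day 7, and Alox5ap, Alox5, Ptger2 and Ptger4 on day 3.

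Ptgs1 differed far less between sections. It was at 7.96 CPM (349 UMIs) on day 0, 4.05 (68) on day 1, 7.84 (440) on day 3 and 11.1 (463) on day 7. Days 0 and 3 did not differ beyond counting error (0.986-fold, 0.855 to 1.14), day 1 was 0.509-fold of day 0 (0.387 to 0.662), and day 7 was 1.39-fold (1.21 to 1.60). The day 7 value depended on the scaling, as its log2 ratio of 0.48 became -0.13 with TMM factors. The balance of the 2 cyclooxygenases therefore differed between the sections. Ptgs2 made up 1.69% (0.623 to 3.64) of their joint UMIs on day 0, 10.5% (4.66 to 19.7) on day 1, 18.8% (15.6 to 22.4) on day 3 and 67.7% (65.2 to 70.1) on day 7. Being a share of 2 genes in 1 library, this balance does not depend on the scaling of the section. UMIs are not corrected for how well each gene is captured, so the share compares sections and spots and does not give the amounts of the enzymes.

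To ask where in a section the genes lay, spots were ranked by the share of their UMIs that came from a marker list, and the 10% of spots with the highest share ("rich" spots) were set against the other spots of that section. None of the 10 genes was in a list. Ptgs2 was too rare on day 1 for this comparison, with fewer than the 10 UMIs required. Of its 8 UMIs there, 2 lay in the 267 neutrophil-rich spots (ratio 5.35, 0.528 to 29.9) and 3 in the platelet-rich spots (6.25, 0.970 to 32.1). Both intervals include 1, so a neutrophil setting of Ptgs2 was not detectable at this depth. On day 3 the 102 UMIs were spread thinly. The smooth muscle/pericyte-rich spots were highest, at 4.44 CPM against 1.53 in the rest (2.91-fold, 1.78 to 4.62), and the ratio was 1.88 when the spots were ranked without the list gene that has the most UMIs. Regenerating muscle-rich spots were 2.28-fold (1.44 to 3.52) above the rest and fibroblast-rich spots 1.97-fold (1.20 to 3.13). Monocyte/macrophage-rich spots, by contrast, held only 10 of the 102 UMIs, and their ratio was 0.588 (0.273 to 1.13), an interval that includes 1 and no ratio above 1.13. Neutrophil-rich spots held 13 UMIs (1.58-fold, 0.809 to 2.84).

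On day 7 the level of Ptgs2 was highest in spots rich in chondrogenic, osteogenic or fibroblast RNA. Ptgs2 was at 127 CPM in the 303 chondrogenic-rich spots and at 11.7 CPM in the other 2729, a ratio of 10.8 (9.54 to 12.3), and these spots held 530 of its 971 UMIs. Such a ratio has to be read against the section, where 23.5% of the 15392 features with at least 10 UMIs were at least 2-fold higher in the chondrogenic-rich spots. The osteogenic-rich spots (11.3-fold) and the fibroblast-rich spots (9.70-fold) gave similar ratios, tendon-rich spots were 4.06-fold above the rest, endothelial-rich spots 0.97-fold, macrophage-rich spots 0.517-fold (0.407 to 0.648) and adult myofibre-rich spots 0.11-fold. The first 3 sets are largely the same spots. Of the 303 chondrogenic-rich spots, 229 were also osteogenic-rich, 227 also fibroblast-rich, 116 also tendon-rich, 9 also macrophage-rich and 0 also adult myofibre-rich, and adult myofibre genes took 5.05% of their UMIs against 13.6% in the rest. Platelet-rich spots were also at least 2-fold above the rest for Ptgs2. They held 274 of its 971 UMIs, and 90 of these 303 spots were also chondrogenic-rich.

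The level of Ptgs2 followed the amount of cartilage RNA across the whole section. From the 1516 spots with the lowest chondrogenic share to the top 5% of spots, over percentile bins of 0 to 50, 50 to 80, 80 to 90, 90 to 95 and 95 to 100, it was at 3.80 CPM (3.01 to 4.73), 17.6, 32.6, 70.8 (61.0 to 81.8) and 221 (198 to 245). Each bin was above the one before it. Even the lowest bin, with 80 UMIs, was 27.8-fold (12.2 to 77.9) above the day 0 section and 2.09-fold (1.54 to 2.83) above the day 3 section. Ptgs1 showed no such order, at 10.2, 12.7, 12.5, 9.19 and 9.60 CPM. Ptgis followed the cartilage share less steeply, at 19.0, 37.1, 39.4, 54.4 and 83.2 CPM. Ptges was at 9.07, 14.1, 20.6, 25.6 and 17.3 CPM and Hpgd at 4.27, 5.24, 6.57, 7.66 and 7.68 CPM.

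**Figure D2:**
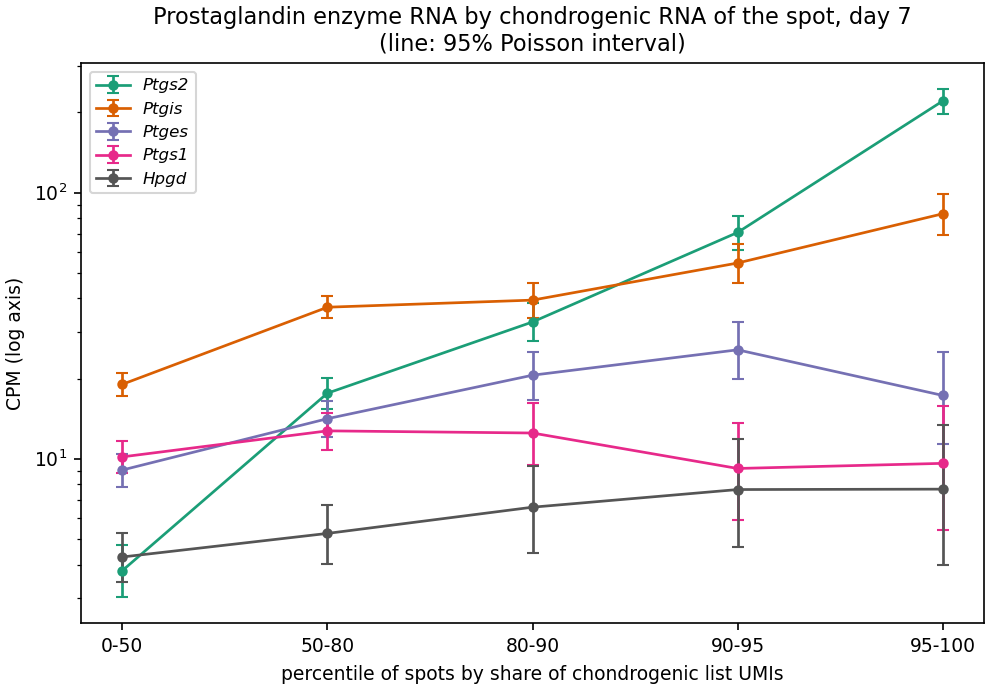
Levels of Ptgs2, Ptgis, Ptges, Ptgs1 and Hpgd in the day 7 section, by the percentile of spots ranked on their share of chondrogenic list UMIs. Points are CPM on a log axis with 95% Poisson intervals. Ptgs2 runs from 3.80 CPM in the lowest bin to 221 CPM in the top 5% of spots, while Ptgs1 stays between 9.19 and 12.7 CPM.

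The lists were then crossed. Ptgs2 was at 157 CPM (143 to 172) in the 229 spots rich in both chondrogenic and osteogenic RNA, 55.6 (43.2 to 70.3) in the 74 that were chondrogenic-rich alone, 60.2 (44.1 to 80.3) in the 74 that were osteogenic-rich alone and 10.7 (9.68 to 11.8) in spots that were neither. The spots of one kind alone could not be told apart, and both lay well above the remaining spots. Spots rich in chondrogenic RNA had overlapping Ptgs2 intervals with tendon RNA (129 CPM, 114 to 146) and without it (125, 111 to 141), and those rich in tendon RNA alone had 31.4 (25.6 to 38.2). Among the chondrogenic-rich spots, the 151 with the higher osteogenic share were at 200.05 CPM (180 to 222) and the other 152 at 71.6 (61.2 to 83.2). The former also had more chondrogenic RNA, at 19334 against 7849 CPM of the list, and the part of each list was not tested. The 5 features whose levels across 3020 day 7 spots were most like that of Ptgs2 were Col2a1 (Pearson r of log counts 0.51), Col9a1, Fgfr3, Acan and Smpd3 (0.50). Col2a1, Col9a1 and Acan encode cartilage matrix, and the first 2 and Acan belong to the chondrogenic list. The spots share 1 library and differ in depth, so r is a description only.

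The cyclooxygenase balance within the day 7 section differed in the same way. Ptgs2 made up 93.1% (90.7 to 95.1) of the joint UMIs in chondrogenic-rich spots, with 530 UMIs against 39 of Ptgs1, and 51.0% (47.6 to 54.4) in the rest. In tendon-rich spots it was 88.0% (84.4 to 91.0), in macrophage-rich spots 47.1% (39.5 to 54.8) and in endothelial-rich spots 44.0% (37.0 to 51.2). Even those lower shares were above the 18.8% of the whole day 3 section. On day 3 the share was 28.7% (19.5 to 39.4) in smooth muscle/pericyte-rich spots and 16.9% (13.6 to 20.7) in the rest, with overlapping intervals.

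**Figure D3:**
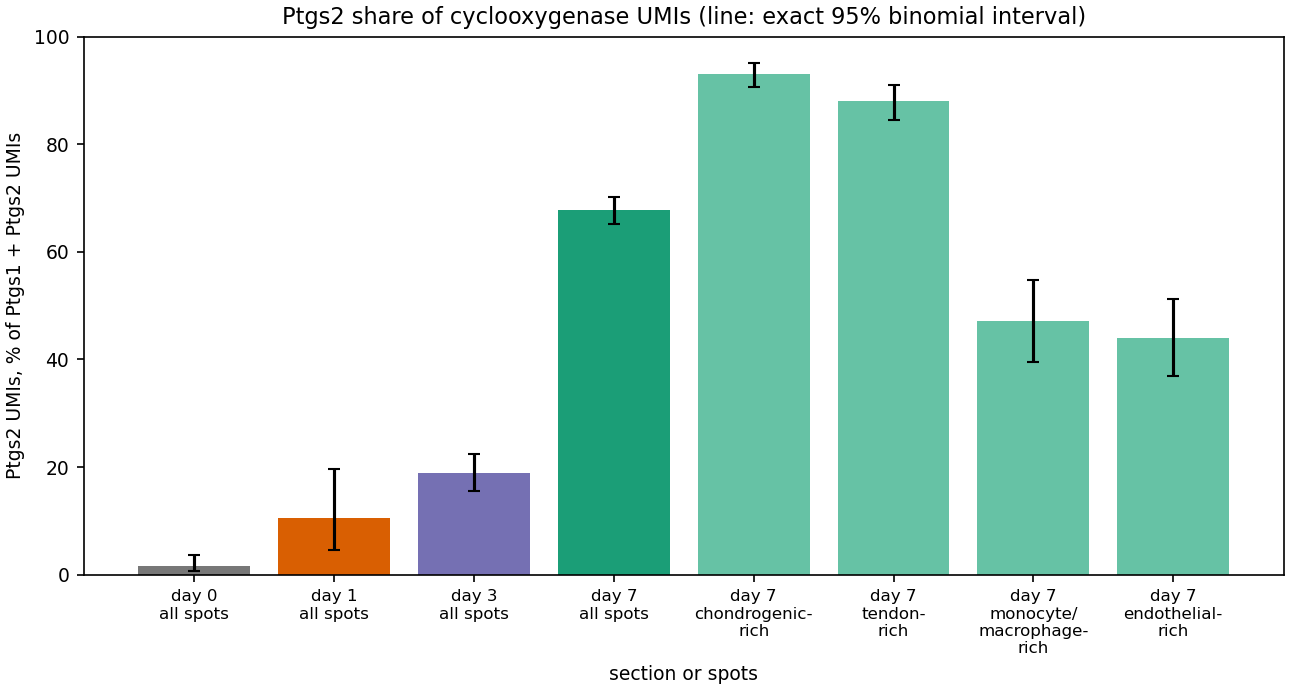
Ptgs2 as a percentage of the UMIs of Ptgs1 and Ptgs2 together, in the whole sections of days 0, 1, 3 and 7 and in the chondrogenic-, tendon-, monocyte/macrophage- and endothelial-rich spots of day 7. Bars give the share and lines are exact binomial 95% intervals. The share is 1.69% on day 0, 67.7% on day 7 and 93.1% in the chondrogenic-rich spots of day 7.

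Ptgs1 was higher in endothelial-rich spots on every day, and in those of several other lists too. In endothelial-rich spots it was 3.25-fold (2.52 to 4.15) above the rest on day 0, 5.63-fold (3.13 to 9.74, with 19 of 68 UMIs) on day 1, 1.88-fold (1.40 to 2.47) on day 3 and 3.10-fold (2.48 to 3.84) on day 7. On day 0 the smooth muscle/pericyte-rich spots (3.71-fold), fibroblast-rich spots (3.64-fold) and macrophage-rich spots (3.57-fold) gave similar ratios. On day 1 smooth muscle/pericyte-rich (4.39-fold, 2.37 to 7.72), adipocyte-rich (3.21-fold), fibroblast-rich (3.19-fold) and chondrogenic-rich spots (2.25-fold) were also at least 2-fold above the rest, and on day 7 adipocyte-rich (2.77-fold, 2.14 to 3.56) and smooth muscle/pericyte-rich spots (2.54-fold, 2.004 to 3.18). On day 3 regenerating muscle-rich spots (1.78-fold, 1.42 to 2.21) were close to the endothelial-rich ones. The endothelial-rich and smooth muscle/pericyte-rich sets shared 107 of their 303 spots on day 7. The gene was thus not particular to the endothelial list. In uninjured muscle 13.6% of all features tested were at least 2-fold higher and 0.355% lower in endothelial-rich spots. Over the day 7 spots the features most like it were Plvap, Lrg1, Nts, Vwf and Ndrg1, all with a weak r (0.14 to 0.17) from which nothing is read. In chondrogenic-rich spots Ptgs1 was 0.83-fold of the rest (0.582 to 1.15), not told apart from 1.

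The synthases downstream differed from each other. Ptgis, the prostacyclin synthase, was at 8.62 CPM (378 UMIs) on day 0, 12.8 (215) on day 1, 8.22 (461) on day 3 and 31.1 (1299) on day 7. Days 0 and 3 did not differ beyond counting error (0.954-fold, 0.830 to 1.10), day 1 was 1.49-fold of day 0 (1.25 to 1.76) and day 7 3.60-fold (3.21 to 4.05). On every day its level was higher in tendon-rich spots, by 2.58-fold (2.002 to 3.30) on day 0, 3.72-fold (2.78 to 4.95) on day 1, 3.08-fold (2.49 to 3.78) on day 3 and 3.61-fold (3.21 to 4.06) on day 7. Fibroblast-rich spots of day 1 had 56.3 CPM against 9.28 (6.07-fold, 4.50 to 8.12). Other lists also had rich spots at least 2-fold above the rest for Ptgis. They were chondrogenic and fibroblast on day 0, smooth muscle/pericyte and adipocyte on day 1, adipocyte on day 3, and osteogenic and fibroblast on day 7. The gene was thus not particular to the tendon list. In the 187 spots of day 7 that were tendon-rich but not chondrogenic-rich, Ptgis was at 93.4 CPM (83.1 to 105) against 60.3 (50.5 to 71.4) in spots that were chondrogenic-rich alone and 21.1 (19.6 to 22.7) in spots that were neither. Ptgs2 had the opposite order of the former 2, at 31.4 and 125 CPM. Ptgis was 2.39-fold (2.08 to 2.73) higher in chondrogenic-rich spots. The most similar features on day 7 were Col1a2 (r 0.31), Col1a1, Sparc, Lox and Actb, the first 2 being the chains of type I collagen. At equal depth 0.524% of day 7 spots held both Ptgs2 and Ptgis, with an interval of 0.285 to 0.838, and the product of their separate shares (4.45% and 6.32%) was 0.281%.

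Ptges, the inducible prostaglandin E synthase, kept within a narrow range. It was at 7.48 CPM (328 UMIs) on day 0, 5.25 (88) on day 1, 10.3 (577) on day 3 and 13.1 (549) on day 7, or 0.702-fold (0.548 to 0.890), 1.38-fold (1.20 to 1.58) and 1.76-fold (1.53 to 2.02) of day 0. Its day 3 value lay above day 0 by CPM (log2 0.46) and slightly below it with TMM factors (-0.09). In chondrogenic-rich spots of day 7 it was 1.86-fold (1.48 to 2.33) higher, in fibroblast-rich spots 2.18-fold (1.76 to 2.68), and adipocyte-rich spots led on day 0 (3.48-fold, 2.64 to 4.53), day 1 (5.84-fold, 3.40 to 9.66) and day 3 (2.84-fold, 2.21 to 3.61). Neutrophil-rich spots of day 3 had 21.0 CPM of Ptges against 9.29 (2.26-fold, 1.81 to 2.81), a ratio of 1.26 once the most abundant gene was taken out of the neutrophil list. On day 7 Ptges and Ptgs2 shared 0.151% of equal-depth spots, with an interval (0.037 to 0.347) that includes the product of their shares, 0.104%.

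Both prostaglandin E2 receptors were higher on days 1 and 3 than on day 0. Ptger2 had 11 UMIs on day 0 (0.251 CPM), 56 on day 1 (3.34 CPM), 226 on day 3 (4.03 CPM) and 17 on day 7 (0.406 CPM). Days 1 and 3 overlapped in their intervals, as did days 0 and 7, and the groups of days stood far apart: 13.3-fold (6.90 to 28.2) above day 0 on day 1, 16.1-fold (8.81 to 32.6) on day 3 and 1.62-fold (0.716 to 3.83) on day 7. From day 3 to day 7 the level was 9.91-fold lower. Ptger4 was at 1.50 CPM (66 UMIs), 3.87 (65), 7.11 (399) and 4.76 (199), which is 2.58-fold (1.80 to 3.68), 4.73-fold (3.64 to 6.23) and 3.16-fold (2.38 to 4.24) of day 0. On day 7 the ratios of the 2 receptors to day 0 had overlapping intervals and could not be told apart. For 100 UMIs of Ptger4 there were 16.7 of Ptger2 (7.94 to 31.8) on day 0, 86.2 (59.2 to 125) on day 1, 56.6 (47.9 to 66.8) on day 3 and 8.54 (4.88 to 14.0) on day 7, so that days 1 and 3 lay above days 0 and 7, which overlapped.

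Ptger2 was higher in leukocyte-rich spots of days 1 and 3. On day 1, 17 of its 56 UMIs were in neutrophil-rich spots (7.00-fold, 3.71 to 12.7) and 15 in macrophage-rich spots (7.56-fold, 3.89 to 14.0), 2 sets that shared 81 of their 267 spots each. Adipocyte-rich spots (4.55-fold, 2.12 to 8.94) and platelet-rich spots (4.16-fold, 2.18 to 7.60) of day 1 were above the rest as well. There 27.9% of features tested were at least 2-fold higher and 2.1% lower in neutrophil-rich spots, and 37.5% higher and 4.19% lower in macrophage-rich spots. On day 3 macrophage-rich spots held 94 of 226 UMIs (10.7 against 2.79 CPM, 3.85-fold, 2.93 to 5.06), where 15.9% of features tested were at least 2-fold higher, and no other list reached 2-fold. With 11 UMIs on day 0 and 17 on day 7, Ptger2 was at least 2-fold higher in the spots of 5 and 8 lists, among them macrophage-rich spots (7.61-fold, 1.84 to 29.9, and 3.92-fold, 1.27 to 11.4), fibroblast-rich spots of day 0 (5.73-fold, 1.23 to 22.5) and tendon-rich spots of day 7 (3.87-fold, 1.18 to 11.4), and the intervals of the others included 1. Over the 5 bins of macrophage share on day 3 it was at 1.18, 3.05, 6.68, 9.38 and 11.8 CPM. Ptger4 was more evenly spread, at 5.38, 6.69, 9.62, 9.90 and 10.2 CPM in the same bins, and its macrophage-rich ratio was 5.17 (2.58 to 9.62) on day 1 and 1.53 (1.19 to 1.95) on day 3. Endothelial-, smooth muscle/pericyte- and adipocyte-rich spots of day 1 were also at least 2-fold above the rest for Ptger4. So were macrophage-, fibroblast-, endothelial- and smooth muscle/pericyte-rich spots of day 0 and tendon-rich spots of day 7. Ptger4 was thus not particular to the macrophage list. In chondrogenic-rich spots of day 7 Ptger4 was at 0.90-fold of the rest, and Ptger2 had 2 UMIs in all 303 of them.

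Hpgd, which inactivates prostaglandins, was rare in all sections. It was at 2.60 CPM (114 UMIs) on day 0, 1.25 (21) on day 1, 2.44 (137) on day 3 and 5.14 (215) on day 7, that is 0.482-fold (0.287 to 0.772), 0.940-fold (0.728 to 1.22) and 1.98-fold (1.57 to 2.50) of day 0. Days 0 and 3 were not told apart. On day 1, 8 of 21 UMIs were in macrophage-rich spots (12.7-fold, 4.57 to 33.1), 5 in adipocyte-rich spots (5.82-fold, 1.67 to 16.6) and 4 in fibroblast-rich spots (2.90-fold, 0.709 to 8.88). Among spots below the median myofibre share the macrophage ratio was 3.07, and all these values rest on few UMIs. On day 0 macrophage-rich spots were 3.88-fold (2.52 to 5.86) above the rest. Fibroblast-, smooth muscle/pericyte- and adipocyte-rich spots of day 0 were also at least 2-fold above it, so Hpgd was not particular to the macrophage list. On day 3 fibroblast-rich spots were 2.78-fold (1.89 to 4.03) and regenerating muscle-rich spots 2.72-fold (1.87 to 3.91) above the rest. In chondrogenic-rich spots of day 7 Hpgd was 1.58-fold (1.05 to 2.31) higher, with an interval below that of Ptgs2, and the section had 22.1 Hpgd UMIs for 100 of Ptgs2 (19.0 to 25.7) against 134 (103 to 175) on day 3.

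**Figure D4:**
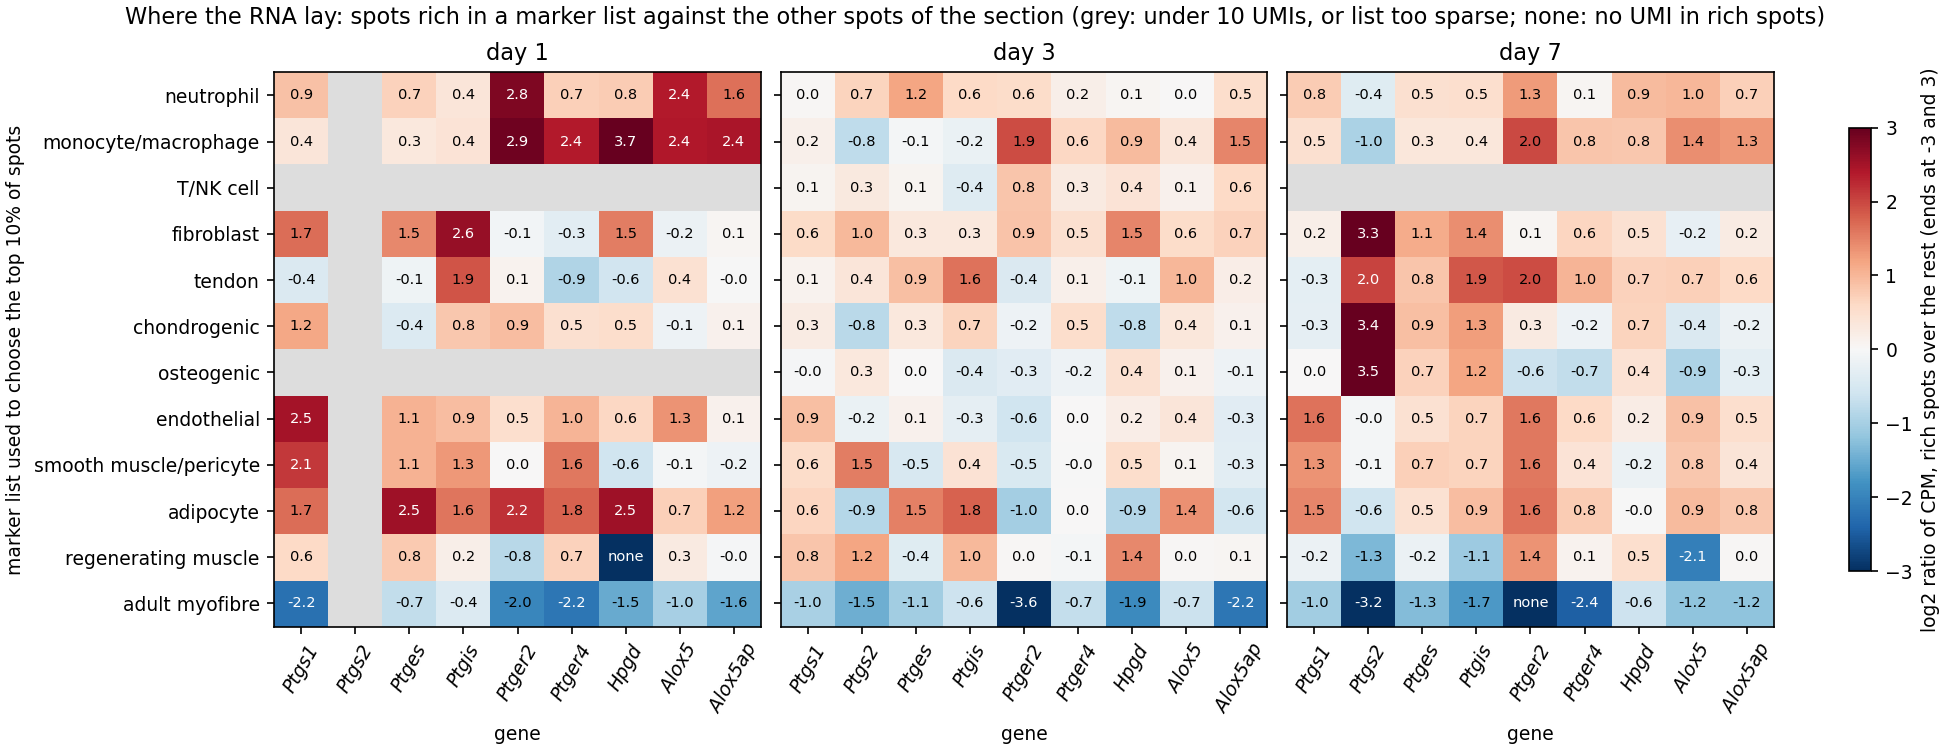
Log2 ratio of CPM in the 10% of spots richest in each marker list to CPM in the rest of the section, for 9 of the genes on days 1, 3 and 7. Colour gives the ratio, grey marks pairs with fewer than 10 UMIs or a list too sparse to rank spots, and "none" marks no UMI in the rich spots. Rows are lists and columns are genes. Ptgs2 stands out in the chondrogenic, osteogenic and fibroblast rows of day 7, and Alox5ap and Ptger2 in the monocyte/macrophage row of day 3. In that row on day 1, Hpgd, Ptger2, Alox5ap, Alox5 and Ptger4 are all at least 2-fold higher.

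On the leukotriene route Alox5ap was highest on day 3. It had 383 UMIs on day 0 (8.73 CPM), 1713 on day 1 (102 CPM), 10566 on day 3 (188 CPM) and 1122 on day 7 (26.8 CPM). No intervals overlapped, and the order of the sections was day 0, 7, 1 and 3. The ratios to day 0 were 11.7 (10.5 to 13.1), 21.6 (19.5 to 23.9) and 3.07 (2.73 to 3.46), and the level was 7.02-fold lower on day 7 than on day 3. At equal depth it was found in 1.87%, 18.0%, 25.0% and 5.22% of spots. On day 3 as many as 2167 of 3029 spots held a UMI at full depth, and 33 was the highest count in a spot.

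Alox5ap tracked the macrophage list within every section. Macrophage-rich spots were 4.02-fold (3.20 to 5.01) above the rest on day 0, 5.44-fold (4.83 to 6.12, 461 against 84.7 CPM) on day 1, 2.75-fold (2.64 to 2.87, 407 against 148 CPM) on day 3 and 2.47-fold (2.17 to 2.80) on day 7. Neutrophil-rich spots of day 1 were also higher (285 against 90.7 CPM, 3.14-fold, 2.75 to 3.57). So were adipocyte-rich and platelet-rich spots of day 1 and fibroblast-rich spots of day 0, each at least 2-fold above the rest. Adult myofibre-rich spots of day 3 were at 0.224-fold of the rest, and the day 3 macrophage ratio was 1.96 (1.87 to 2.06) among spots below the median myofibre share. In the 5 bins of macrophage share the level was 45.1, 120, 252, 353 and 580 CPM on day 1 and 62.0, 180, 311, 374 and 433 CPM on day 3. Read per list UMI, the sections differed: 21.6 Alox5ap UMIs for 1000 macrophage list UMIs on day 0, 64.5 (61.4 to 67.8) on day 1, 21.7 (21.3 to 22.2) on day 3 and 12.9 on day 7. The neutrophil list moved with the day 1 value, as it too was highest on that day, and its part in it was not tested. The features most like Alox5ap across 3028 day 3 spots were Ctsb (r 0.71), Ftl1, Tmsb4x, Lyz2 and Psap (0.68). Lyz2 is in the macrophage list, and Ctsb and Psap encode lysosomal proteins.

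**Figure D5:**
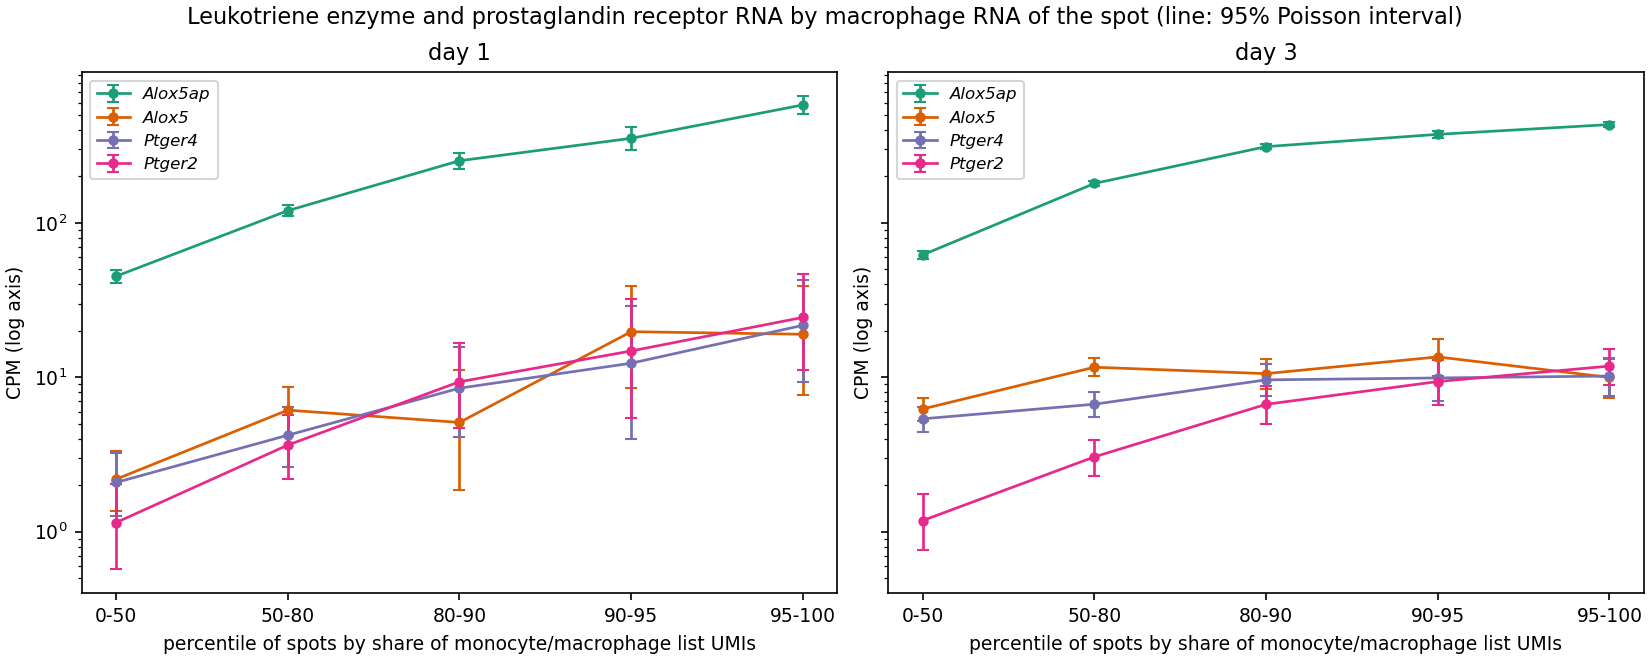
Levels of Alox5ap, Alox5, Ptger4 and Ptger2 on days 1 and 3, by the percentile of spots ranked on their share of monocyte/macrophage list UMIs. Points are CPM on a log axis with 95% Poisson intervals. On day 3 Alox5ap runs from 62.0 to 433 CPM and Ptger2 from 1.18 to 11.8, whereas Alox5 lies between 6.23 and 13.5 CPM with no steady order.

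Alox5, the enzyme that Alox5ap serves, was also highest on day 3. It was at 2.05 CPM (90 UMIs) on day 0, 4.41 (74) on day 1, 9.43 (529) on day 3 and 3.44 (144) on day 7. Days 1 and 7 overlapped in their intervals, and the ratios to day 0 were 2.15 (1.56 to 2.96), 4.60 (3.67 to 5.81) and 1.68 (1.28 to 2.21). For 100 Alox5ap UMIs there were 23.5 of Alox5 (18.5 to 29.6) on day 0, 4.32 (3.38 to 5.45) on day 1, 5.01 (4.58 to 5.46) on day 3 and 12.8 (10.7 to 15.3) on day 7. On day 1 Alox5 was 5.25-fold (2.77 to 9.38) higher in macrophage-rich and 5.16-fold (2.86 to 8.91) in neutrophil-rich spots. Of all features tested, 37.5% and 27.9% were at least 2-fold higher in these 2 sets. Endothelial-rich and platelet-rich spots of day 1 were also at least 2-fold above the rest for Alox5. On day 3 its macrophage-rich ratio was 1.28 (1.02 to 1.59), and 0.962 among spots below the median myofibre share, while adipocyte-rich spots were 2.59-fold (1.97 to 3.35) and tendon-rich spots 2.003-fold (1.60 to 2.49) above the rest. The bins of macrophage share on day 3 were 6.23, 11.6, 10.6, 13.5 and 9.98 CPM. The most similar features on day 3 were Cd163, Ccl6, Mrc1, C1qa and F13a1, with an r of at most 0.18. On day 7 macrophage-rich spots were 2.63-fold (1.81 to 3.77) above the rest, and neutrophil-rich and mast cell-rich spots were also at least 2-fold above it. On day 0 macrophage-, fibroblast-, smooth muscle/pericyte- and adipocyte-rich spots were all at least 2-fold above the rest for Alox5. The gene was thus not particular to the macrophage list.

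Alox15 was at the limit of detection. It had 0 UMIs on days 0 and 1, 4 on day 3 and 1 on day 7. At equal depth a count of 0, read as at most 3, allows up to 0.144% of spots on day 0 and 0.139% on day 1 (upper ends of the exact intervals 0.176% and 0.171%), and no ratio is given. The eosinophil list, of cells known for Alox15, was also near 0, at 0.251 to 1.01 CPM, with Epx at 0 in every section.

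Counted together, 9 of the 10 genes had the 10 UMIs required in each comparison, Alox15 being the exception. On day 1, 5 of the 9 (Ptgs2, Ptger2, Ptger4, Alox5 and Alox5ap) were at least 2-fold above day 0 and 1 (Hpgd) at least 2-fold below, against 17.4% and 11.4% of all features tested. The same 5 were above on day 3 and none below, against 33.3% and 8.26%. On day 7, 4 were above (Ptgs2, Ptgis, Ptger4 and Alox5ap) and none below, against 32.7% and 2.13%. On day 1 the log2 ratio of Alox5 was 1.10 by CPM and 0.91 with TMM factors, which is under 2-fold, and that of Ptgs1 -0.97 and -1.16. On day 7 that of Alox5ap was 1.62 by CPM, 1.01 with TMM factors and 0.98 with DESeq2 size factors. The median log2 ratio of the 9 was 1.10 on day 1, 2.20 on day 3 and 0.98 on day 7, and that of all features tested 0.15, 0.58 and 0.65. From day 1 to day 3, 2 were at least 2-fold higher (Ptgs2 and Alox5) and none lower, against 18.1% and 3.13%. With TMM factors only Ptgs2 stayed at least 2-fold higher there, and Ptgis was at least 2-fold lower. From day 3 to day 7 the genes divided, with 3 at least 2-fold higher (Ptgs2 and Ptgis, which act on the cyclooxygenase route, and Hpgd at 2.11-fold) and 3 at least 2-fold lower (Ptger2, Alox5 and Alox5ap), against 16.1% and 11.8% of all features. These comparisons share sections with each other, and counts of so few genes set no group apart from the other features.

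The rest of the pathway was read from a list of 38 genes, of which 37 named a single feature. On day 1, 9 of 30 tested were at least 2-fold above day 0 and 4 below (median log2 0.28). They included the leukotriene B4 receptor Ltb4r1 (14.3-fold, 9.61 to 22.1), the thromboxane synthase Tbxas1 (7.59-fold, 6.13 to 9.47) and the prostaglandin transporter Slco2a1 (3.96-fold, 3.28 to 4.80). On day 3, 15 of 32 were above and 3 below (median 0.96), among them the prostaglandin D synthase Hpgds at 15.1 CPM against 0.593 (25.5-fold, 17.3 to 39.2), Tbxas1 (10.2-fold, 8.41 to 12.4), the cysteinyl leukotriene receptor Cysltr1 (8.98-fold, 7.03 to 11.6) and the leukotriene C4 synthase Ltc4s (4.37-fold, 3.83 to 5.01). On day 7, 14 of 31 were above and none below (median 0.91), led by the prostaglandin F receptor Ptgfr (16.0-fold, 9.65 to 28.4) with Pla2g4a, the phospholipase that releases arachidonic acid, at 11.3 CPM against 1.71 (6.60-fold, 5.16 to 8.54). The share of all features past the same folds and their median on these days are given above, and TMM factors lower each of these log2 ratios by the shifts given with the depths. With them the day 7 count was 5 in place of 14 (Pla2g4a, Hpgds, Ptger1, Ptgir and Ptgfr), and on day 3 there were 15 above and 5 below.

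In place, the macrophage-rich spots of day 3 had 7 of 32 pathway genes at least 2-fold higher (Pla2g7, Hpgds at 3.17-fold, Tbxas1 at 2.40-fold, Ptgr1, Cysltr1, Cysltr2 and Alox8) and 2 lower (Pla2g2d and Ptger3), against 15.9% and 7.44% of all features. The chondrogenic-rich spots of day 7 had 2 of 31 higher, Pla2g4a (31.4 against 9.06 CPM, 3.47-fold, 2.81 to 4.25) and the prostaglandin E2 receptor Ptger1 (3.01-fold, 1.24 to 6.59), and 7 lower, Hpgds, Ltc4s and Slco2a1 among them, against 23.5% and 6.29%. Ltc4s was at 0.354-fold of the rest (0.211 to 0.559) and Hpgds at 0.483-fold (0.217 to 0.940). Of the genes of both lists tested in these spots, Ptgs2 had the largest ratio.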

How the data were processed

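Spatial RNA was captured from 1 section per day, and the authors deposited whole-number UMI counts for every gene and spot, made with Space Ranger (version 1.2.0 per the file headers, another version in the study's methods) on the mouse build mm10, with tissue spots chosen from images. UMIs were summed per section or set of spots and divided by the total (CPM). Ratios carry exact conditional binomial intervals, levels exact Poisson intervals and shares exact Clopper-Pearson intervals, all at 95% and for counting error only. Features with at least 10 UMIs over both groups were tested against a ratio of 2 or 0.5, and the floor was 3 UMIs. Spots were ranked by the share of their UMIs in each of 15 marker lists (99 genes), thinned to 2000 UMIs in 20 draws with seed 1 for shares of spots (shallower spots left out), and left unthinned for CPM. Similar features were the 5 with the highest Pearson r of log counts per 10000 among features with at least 200 UMIs, in spots with at least 1000 UMIs, in the section where a gene was highest. The genes, lists, settings and the rule for named genes (the 10 genes, the 38 pathway genes and the similar features) were chosen with earlier results of these data known. The pathway symbol that named 2 features was left out. edgeR 4.0.16 and DESeq2 1.42.0 (R 4.3.3) gave scaling factors only. SciPy 1.17.1, NumPy 2.4.6, matplotlib 3.10.9 and pandas 2.3.3 were used under Python 3.11.15. Alternatives were both factors, a total without mitochondrial, haemoglobin and adult myofibre genes, the top 5% or 20% of spots, spots with at least 1000 UMIs, spots below the median myofibre share, marker lists without their most abundant gene, a minimum of 30 UMIs and thinning to 1000 or 4000 UMIs. Calculations were tested on simulated data. Spot positions and images were not used here.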

Additional observations from a re-analysis of the deposited data

Results flagged for a closer look

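Ptgs1, Ptges and Hpgd lay below their day 0 level in the day 1 section and above it in a later one, and the difference between the days was not tested, as each day is 1 section and all ratios share day 0. The log2 ratio to day 0 of Hpgd was -1.05 on day 1 and 0.98 on day 7. That of Ptgs1 was -0.97 on day 1 and 0.48 on day 7, the latter becoming -0.13 with TMM factors and -0.16 with DESeq2 size factors. That of Ptges was -0.51 on day 1, 0.46 on day 3 and 0.81 on day 7, and its day 3 value became -0.09 with TMM factors and -0.10 with DESeq2 size factors. The median log2 ratio of all features tested was 0.15 on day 1 and 0.65 on day 7.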

How the results depend on the processing

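No paired analysis was possible because each day is 1 section and the labels give no replicate numbers. The count of genes at least 2-fold below day 0 at day 1 was 2 in place of 1 with TMM factors, with DESeq2 size factors and with a total that left out mitochondrial, haemoglobin and adult myofibre genes, Ptgs1 joining Hpgd. The other counts of the 10 genes against day 0, and those from day 3 to day 7, stayed within 1.5 times under the settings run. From day 1 to day 3 the count above was 1 in place of 2 with both factors and without the muscle genes (Alox5 lost), and the count below was 1 in place of 0 with both factors (Ptgis) and with no filter on low counts (Alox15). Settings for these counts and for the pathway genes were chosen after seeing the data. Pathway genes above day 0 numbered 5 in place of 14 on day 7 with both factors and 14 in place of 9 on day 1 with no filter, those below on day 3 numbered 5 in place of 3 with both factors, and their other counts against day 0 stayed within 1.5 times. With no filter, a ratio between counts of at most 3 UMIs follows from the floor and the section depths alone. The genes this added on day 1 had at most 4 UMIs in either section. Alox15 was counted as lower in this way although it had 0 UMIs on day 1 and 4 on day 3. These calls without the filter therefore say nothing about expression. The Ptgs2 ratio of 10.8 in cartilage-rich spots of day 7 was 14.2 with the top 5% of spots, 8.81 with the top 20%, 8.81 with the total without muscle genes and 9.48 among spots below the median myofibre share. The Alox5ap ratio of 2.75 in macrophage-rich spots of day 3 was 2.62, 3.10, 2.25 and 1.96 under those settings, in the same order. Of 150 ratios between rich spots and the rest, 7 changed side of 1 under an alternative. Among spots below the median myofibre share, Ptges was at 0.964 in endothelial-rich and 0.971 in macrophage-rich spots of day 7, Ptgis at 0.859 in macrophage-rich spots of day 7 and Alox5 at 0.962 in macrophage-rich spots of day 3. Without the list gene with the most UMIs, Ptgis was at 0.727 in neutrophil-rich and 0.882 in smooth muscle/pericyte-rich spots of day 3, and with the top 20% of spots Alox5ap was at 0.963 in tendon-rich spots of day 3. The cause was not tested. Depth limits Ptgs2 at days 0 and 1 (6 and 8 UMIs), Ptger2 at days 0 and 7 (11 and 17) and Alox15 in all sections.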
